A study of Mus musculus with 2 samples.

Results

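Genes of neutrophil granules and alarmins were examined in bulk RNA-seq of 2 rhabdoid tumors (RT) from Dppa3-cre::Smarcb1 Fl/+ mice. The set held 10 genes, chosen by name, of the 55416 genes in the deposited count table, namely S100a8, S100a9, Ltf, Camp, Lcn2, Ngp, Retnlg, Cxcr2, Csf3r and Mpo. They were divided by background knowledge into 5 genes that epithelium also makes (S100a8, S100a9, Ltf, Camp and Lcn2) and 5 that are largely restricted to neutrophils and their precursors (Ngp, Retnlg, Cxcr2, Csf3r and Mpo). All 10 were found in the table.

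Rhabdoid tumors are aggressive childhood cancers defined by loss of SMARCB1, a core subunit of SWI/SNF chromatin remodelers. The mice shared 1 floxed Smarcb1 allele and a Cre knocked in at Dppa3, which marks primordial germ cells, in a line on a C57BL/6 background. By its labels, 1 tumor lay inside the skull at the trigeminal nerve (below, the IC library) and the other outside it, in the maxillary part of the face (the EC library), and both are classed as MYC. The labels name no treatment, and the ages of these mice were not given in the sources used here. Whole tumor pieces were sequenced, so blood, immune and neighboring cells could enter with the tumor cells. With 1 library per location and no normal tissue, no difference has a replicate check. For lack of replicates, every interval covers counting error only. Without molecular identifiers, reads of 1 molecule cannot be told from reads of several, so the intervals may be too narrow even for that error.

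Neutrophils store antimicrobial proteins in granules that form in sequence. Azurophil granules with myeloperoxidase (Mpo) and elastase form in marrow precursors, specific granules with lactoferrin (Ltf), cathelicidin (Camp), neutrophilic granule protein (Ngp) and lipocalin 2 (Lcn2) form later, and circulating neutrophils carry the receptors Cxcr2 and Csf3r. S100A8 and S100A9 pair to form calprotectin, which makes up much of the neutrophil cytosol, sequesters metal ions and acts as an alarmin on Toll-like receptor 4. Monocytes contain it as well. Stratified epithelium can make calprotectin, and glands and airway secrete lactoferrin and lipocalin 2, so their transcripts in bulk tissue can come from either source.

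Totals were 34545846 counts in the IC and 26915696 in the EC library. Smarcb1, the targeted gene, had 365 and 530 counts, which is 10.5 and 19.8 CPM (counts scaled to a library size of 1000000). A floor of 3 counts, at or under which a count was treated as background, corresponded to 0.0863 and 0.112 CPM. Markers of stratified epithelium set the libraries apart, with 10 of 10 above the floor and a sum of 20389 CPM in the IC library, against 3 of 10 and 3.21 CPM in the EC library. Krt13, a keratin of mucosal lining, was at 10554 and 0.187 CPM, and Muc5b, a mucin of glands and airway, at 2412 and 0 CPM. These markers go against the labelled sites, since a nerve inside the skull holds no such epithelium while the maxillary face borders on it. IC and EC therefore stand for the labels only, and each direction below is between the libraries so labelled.

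The promoters of 4 genes are shown because the results turn on them. Per kilobase of exon, S100a8 and S100a9 were the most abundant of the genes in the IC library and Retnlg the most abundant there of the neutrophil-restricted genes, and Csf3r was the gene that differed in the opposite direction. Each run holds the 250 bases before the transcription start from RefSeq, 5′ to 3′ on the strand of the gene. Capitals mark matches, on either strand, to the letters of the motifs named after the sequences, and no match overlapped another in these runs.
S100a8 (chr3:90668821-90669070, GRCm38.p6, plus strand): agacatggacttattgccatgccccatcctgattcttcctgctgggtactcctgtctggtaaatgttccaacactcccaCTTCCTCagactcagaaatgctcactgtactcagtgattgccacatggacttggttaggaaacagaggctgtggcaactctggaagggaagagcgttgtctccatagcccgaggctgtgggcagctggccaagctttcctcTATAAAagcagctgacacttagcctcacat
S100a9 (chr3:90695722-90695971, GRCm38.p6, minus strand): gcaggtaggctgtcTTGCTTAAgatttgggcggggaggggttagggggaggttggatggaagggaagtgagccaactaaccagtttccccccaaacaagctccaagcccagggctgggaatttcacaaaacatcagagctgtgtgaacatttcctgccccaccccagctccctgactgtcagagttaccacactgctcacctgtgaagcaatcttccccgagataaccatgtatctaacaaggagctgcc
Retnlg (chr16:48872358-48872607, GRCm38.p6, plus strand): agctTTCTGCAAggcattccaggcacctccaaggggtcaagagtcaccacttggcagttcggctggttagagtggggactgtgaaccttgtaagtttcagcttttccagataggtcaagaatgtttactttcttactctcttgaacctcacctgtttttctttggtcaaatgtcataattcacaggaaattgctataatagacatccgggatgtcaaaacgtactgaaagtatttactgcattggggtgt
Csf3r (chr4:126024409-126024658, GRCm38.p6, plus strand): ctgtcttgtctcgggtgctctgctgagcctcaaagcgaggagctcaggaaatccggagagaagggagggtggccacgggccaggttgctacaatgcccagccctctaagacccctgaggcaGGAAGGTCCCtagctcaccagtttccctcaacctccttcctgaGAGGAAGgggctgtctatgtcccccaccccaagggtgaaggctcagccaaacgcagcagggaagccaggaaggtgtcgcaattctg

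C/EBP and PU.1 proteins are the transcription factors best known for driving granulocyte genes. The C/EBP letters, TTGCNNAA, were found in the promoters of 5 of the 10 genes, Lcn2, S100a9, Ngp, Ltf and Retnlg, and in 9.56% of all 32851 promoters of this length. In the runs above the match is TTGCTTAA in S100a9 and TTCTGCAA in Retnlg. The PU.1 letters, GAGGAAG, were found in 4 of 10 (Lcn2, S100a8, Csf3r and Mpo) and in 10.6% of all promoters. The AP-1 letters, TGANTCA, were in 0 of 10 and in 6.75% of all. The NF-kappaB letters, GGG and TTCC with any 3 bases between, were in Csf3r alone of the 10 and in 4.65% of all. The TATA box, TATAAA, was in S100a8 alone, 30 bases before the start, and in 12.4% of all. S100a8 and Csf3r, which differed in opposite directions below, thus both held the PU.1 letters.

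Calprotectin transcripts dominated the set in the IC library and were nearly missing from the other. S100a9 (ENSMUSG00000056071) had 14455 counts in the former and 13 in the latter, that is 416 CPM (95% Clopper-Pearson interval 409.3 to 422.8) and 0.486 CPM (0.259 to 0.831). S100a8 (ENSMUSG00000056054) had 8970 and 9 counts, or 258.2 CPM (252.8 to 263.5) and 0.336 CPM (0.154 to 0.638). The genes ranked 331 and 583 by counts among all genes of the IC library, and 17464 and 18401 in the EC library. S100a9 was 856-fold higher in the former (95% interval of the ratio 501 to 1609) and S100a8 768-fold (404 to 1679). Together they made up 88.7% (88.3 to 89.1) of the counts of the 10 genes in the IC library and 1.38% (0.864 to 2.07) of those in the other, shares that are not corrected for gene length. Where fewer transcripts were counted, fewer cells of a type and less RNA per cell cannot be told apart in bulk tissue.

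Both subunits are needed for the calprotectin dimer, and the ratio of their transcripts was compared within each library. Per kilobase of exon, S100a9 was 2.14 times S100a8 (2.09 to 2.20) in the IC library. In the EC library it was 1.92 times (0.759 to 5.09), an interval too wide to show a change.

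The 3 other genes with an epithelial source were also higher in the IC library. Ltf (ENSMUSG00000032496), the iron-binding protein of specific granules and of glandular secretions, had 1108 counts and 1 count, at 31.9 CPM (30.0 to 33.8) and 0.0374 CPM (0.000946 to 0.208). Its ratio was 853-fold with an interval of 153 to 33734, which is wide because it rests on a single count, and 284-fold with that count held at the floor. Lcn2 (ENSMUSG00000026822), a lipocalin that withholds iron from bacteria by binding siderophores, had 696 and 29 counts, or 20.0 CPM (18.6 to 21.6) and 1.08 CPM (0.726 to 1.56). At 18.5-fold (12.8 to 27.8), it kept the most counts in the EC library of these 5 genes. Camp (ENSMUSG00000038357), the cathelicidin antimicrobial peptide, had 58 and 2 counts, with 1.67 CPM (1.27 to 2.16) against 0.0747 CPM (0.00905 to 0.270). Its ratio of 22.3-fold (5.91 to 189), or 14.9-fold at the floor, came from a low level in both libraries.

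Among the neutrophil-restricted genes, Retnlg and Cxcr2 were higher in the IC library, Csf3r was higher in the other, and Ngp and Mpo were near or at 0. Retnlg (ENSMUSG00000022651), a resistin-like secreted protein of mature mouse neutrophils, had 306 and 0 counts, or 8.81 CPM (7.85 to 9.85) against an upper limit of 0.138 CPM. Set against the floor of 3 counts in the EC library, the level in the IC library was 78.6-fold higher. The 95% interval of the ratio, without the floor, began at 63.5-fold. Cxcr2 (ENSMUSG00000026180), the receptor for neutrophil-attracting CXC chemokines, had 113 and 4 counts, at 3.25 CPM (2.68 to 3.91) and 0.149 CPM (0.0407 to 0.383), a 21.8-fold ratio (8.27 to 81.2). Both genes thus differed in the direction of calprotectin.

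Ngp and Mpo mark earlier stages of the lineage. Ngp (ENSMUSG00000032484), a cystatin-like granule protein, had 9 and 0 counts, which is 0.259 CPM (0.118 to 0.492) against an upper limit of 0.138 CPM, and so fell below the minimum of 10 counts for a ratio. Mpo (ENSMUSG00000009350), the enzyme of azurophil granules, had 0 counts in both libraries, for which the upper limits were 0.106 and 0.138 CPM. Expression of Mpo was therefore not detectable at this depth.

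Csf3r (ENSMUSG00000028859), the receptor for granulocyte colony-stimulating factor, which monocytes also carry, differed in the opposite direction. It had 692 counts in the IC library and 1542 in the EC library, which is 19.9 CPM (18.5 to 21.5) and 57.6 CPM (54.8 to 60.6). The ratio was 2.89-fold higher in the latter (2.64 to 3.17). Csf3r made up 2.62% (2.43 to 2.82) of the counts of the 10 genes in the IC library and 96.4% (95.3 to 97.2) in the EC library.

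**Figure D1:**
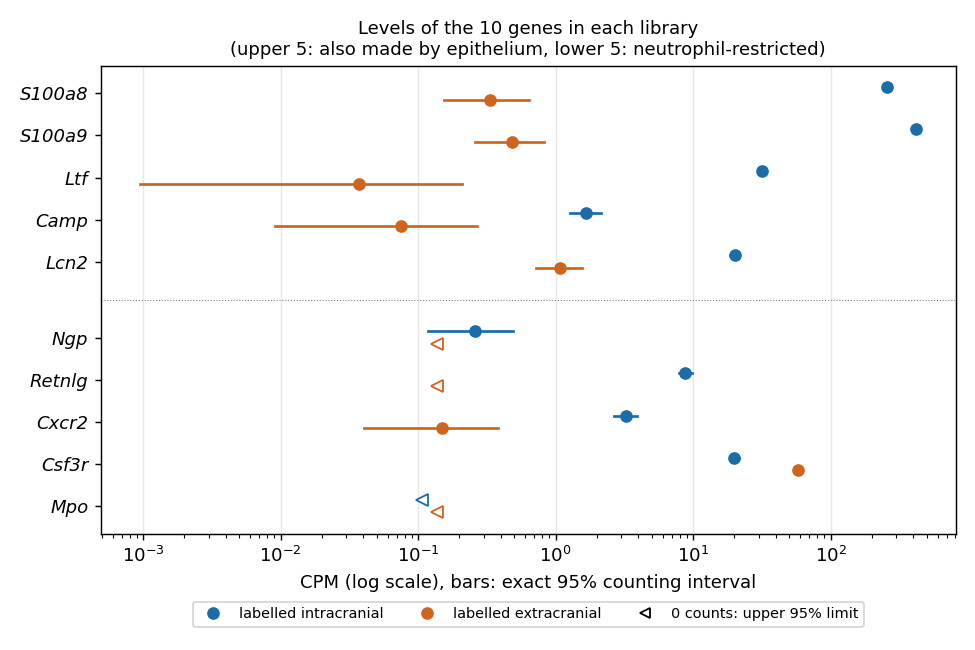
Levels of the 10 genes in CPM on a log axis, with the IC library in blue and the EC library in orange, 1 library each. Points are CPM, bars the exact 95% counting interval and open triangles the upper limit at 0 counts. S100a8 and S100a9 lie above 250 CPM in blue and below 1 CPM in orange, and Csf3r is the one gene whose orange point lies to the right of its blue point.

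The order of levels was compared per kilobase of exon, since the genes differ in length. In the IC library it ran from S100a9 (797 CPM per kilobase) and S100a8 (372) through Retnlg (14.9), Ltf (9.24), Lcn2 (7.64) and Csf3r (5.52) to Camp (2.20), Cxcr2 (1.07), Ngp (0.212) and Mpo (0), and none of the neighbours had overlapping counting intervals. In the EC library Csf3r stood alone at 15.97 CPM per kilobase (15.2 to 16.8). S100a9 (0.931), S100a8 (0.485) and Lcn2 (0.413) followed, and from S100a9 downward each gene's interval overlapped that of the next. Without the length correction, 6 of 10 genes changed place in the former and 5 of 10 in the latter.

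To place these ratios against all genes, a gene was called where its whole 95% interval lay beyond 4-fold. Of all 21977 genes with 10 or more counts over both libraries, 5.41% were called higher in the IC library and 1.78% higher in the other. Of the 10 genes, 8 reached the minimum count; 7 were called higher in the IC library (S100a8, S100a9, Ltf, Camp, Lcn2, Retnlg and Cxcr2) and 0 higher in the other. Csf3r was not called, since its whole interval lay beyond 2-fold but not beyond 4-fold. Genes that passed the minimum only through the library where they were high, such as Retnlg, had to differ, so the count of 7 is a description. The median log2 ratio, extracranial over intracranial, was -8.15 for the 5 genes also made by epithelium and -4.44 for the 3 neutrophil-restricted genes with enough counts, with counts of 3 or fewer held at the floor. Over all genes tested the median was -0.04.

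**Figure D2:**
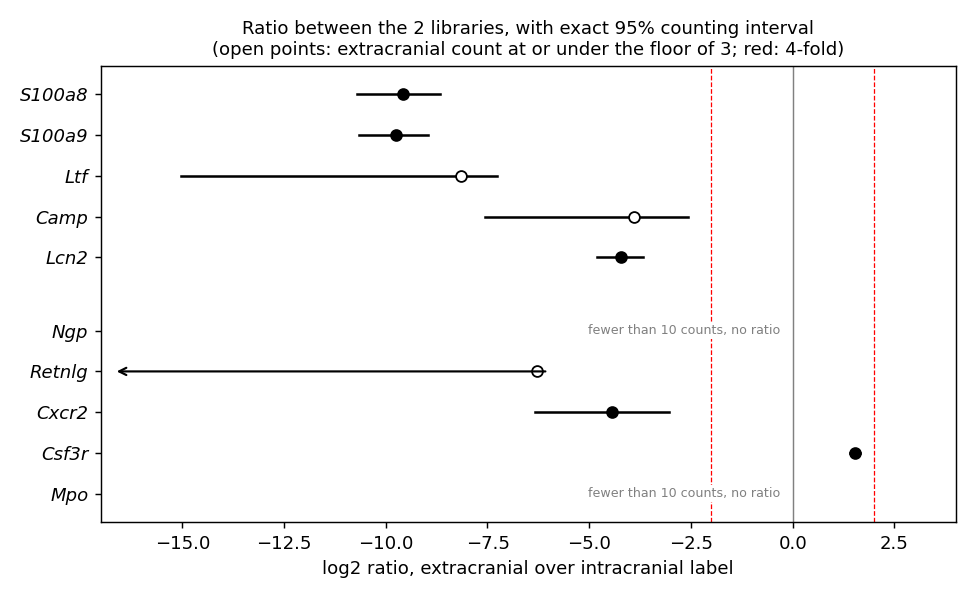
The log2 ratio of each gene, extracranial over intracranial label, with its exact 95% counting interval; red lines mark 4-fold and open points have 3 or fewer counts in the EC library and are drawn at the floor. The 7 called genes lie wholly left of the left red line, from Camp at -3.90 to S100a9 at -9.74, and Csf3r lies at 1.53.

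The genes were also set against leukocyte transcripts of the same library. Ptprc, which encodes the pan-leukocyte protein CD45, was higher in the EC library, at 71.4 and 191 CPM. All 7 pan-leukocyte markers were higher there beyond counting error, with a median log2 ratio of 1.30. Of all 21977 genes tested, 6421 were also higher there beyond counting error, and 7079 were lower. Per 1000 Ptprc counts, Csf3r had 279 counts (256 to 303) in the IC library and 302 (285 to 320) in the other, and these intervals overlapped. Cxcr2 had 45.5 (37.4 to 55.0) and 0.783 (0.213 to 2.01), and Retnlg 123 (109 to 139) and 0 (up to 0.722). S100a8 had 3614 and 1.76 counts per 1000 Ptprc counts. Relative to Ptprc, Csf3r was at a similar level in both libraries. Dividing by Ptprc changes the ratio of every gene by the same factor, so genes higher in the IC library had to lie further apart. The log2 ratios of the pan-leukocyte markers ranged from 0.47 to 1.71, so the result for Csf3r depends on the marker chosen. Per 1000 counts of Itgam, a myeloid integrin, Csf3r had 238 (219 to 259) and 299 (282 to 316) counts, without overlap of the intervals.

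**Figure D3:**
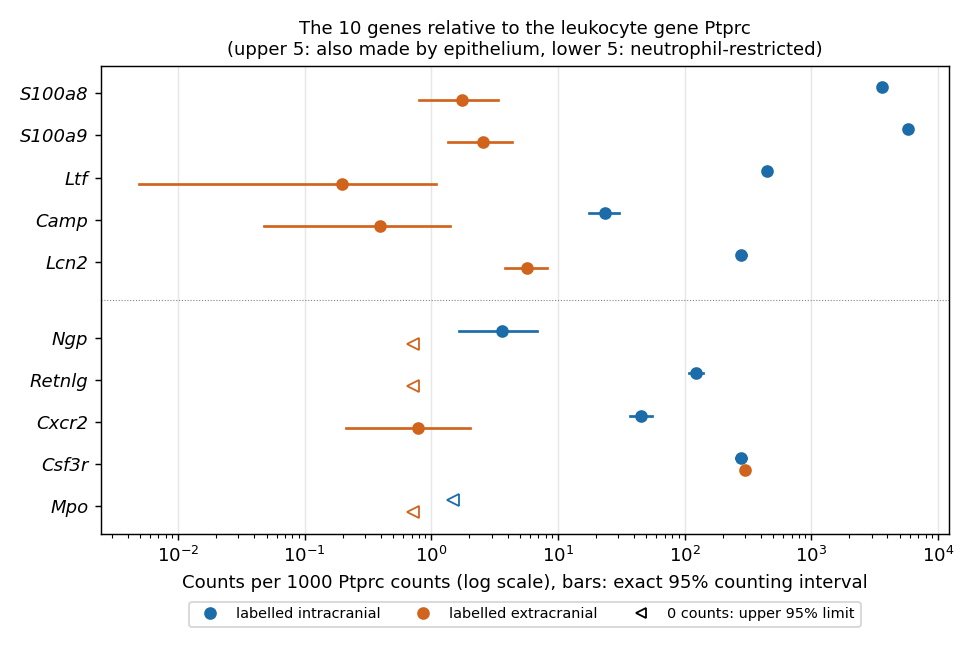
The 10 genes as counts per 1000 Ptprc counts of the same library, on a log axis, with blue for the IC library, orange for the EC library, bars for exact 95% counting intervals and open triangles for the upper limit at 0 counts. The points of Csf3r are close together, at 279 and 302, and those of S100a8 are at 3614 and 1.76.

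Monocytes and macrophages can also carry Csf3r. Of their markers, 10 of 10 were above the floor in both libraries and summed to 1889 CPM in the IC library and 6070 CPM in the EC library. Their median log2 ratio was 1.68, near the 1.53 of Csf3r. Beyond counting error, 9 of 10 were higher in the EC library, against 6421 of all 21977 genes tested. Ly6c2, a surface protein of inflammatory monocytes, was the exception at 31.2 and 13.5 CPM. Their part in the result for Csf3r was not tested.

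Other neutrophil genes were examined by granule type and stage. Of the 5 other azurophil granule genes (Elane, Prtn3, Ctsg, Prss57 and Ms4a3), only 1, Prtn3, reached the minimum count, and it was not called. Ctsg and Ms4a3 had 0 counts in both libraries, and Elane had 1 count and 0 counts. Prtn3, which encodes proteinase 3, had 6 and 11 counts. In neither library did this group exceed 0.523 CPM in sum, so that transcripts of the promyelocyte stage were at or near the floor together with Mpo.

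Of the 10 other genes of specific and gelatinase granules, 8 reached the minimum count, 5 were called higher in the IC library and 0 higher in the other. Mmp8, neutrophil collagenase, had 110 and 6 counts and was 14.1-fold higher (6.28 to 39.3). Pglyrp1, a peptidoglycan-binding protein, had 650 and 23 counts, and Olfm4, an olfactomedin of specific granules and of epithelium, 188 and 0. Chil3, a chitinase-like protein of neutrophils and macrophages, had 5601 and 17 counts, but its near-identical copy Chil4 may share its reads. Mmp9, the gelatinase that macrophages also make, had 11078 and 2429 counts, a 3.51-fold ratio (3.36 to 3.67) that was not called. Cd177 had 35 and 8 counts, a 3.37-fold ratio (1.54 to 8.41), and was not called either. Adam8 was slightly higher in the EC library, at 81.2 and 93.1 CPM. Fcnb, a ficolin of immature neutrophils, had 0 counts in both.

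Other genes of mature neutrophils also differed in both directions. Of 10, 8 reached the minimum, 6 were called higher in the IC library (Trem1, Il1r2, Clec4d, Clec4e, Padi4 and Stfa2l1) and 0 higher in the other. The list is not exclusive to neutrophils, and which cells supplied these transcripts was not tested. Clec4e, a C-type lectin receptor for mycobacterial and damage ligands, had 1098 and 39 counts, a 21.7-fold ratio (15.8 to 30.7). Trem1, which amplifies myeloid inflammatory signals, had 366 and 16 counts, and Il1r2, the decoy receptor for interleukin 1, 211 and 17. Stfa2l1, a stefin, had 65 and 0 counts, though stefin A genes have near-identical copies that may share reads. Fpr1 and Fpr2, the formyl peptide receptors, which monocytes also carry, were higher in the EC library, at 6.53 and 16.6 CPM for Fpr1 and 9.04 and 23.8 CPM for Fpr2. Ly6g, the surface protein by which mouse neutrophils are usually sorted, had only 4 counts and 1 count, and Cxcr1 had 1 and 2.

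The NADPH oxidase of phagocytes, which makes the oxidative burst, differed in the direction of the leukocyte markers. All 6 oxidase genes were higher in the EC library beyond counting error, against 6421 of all 21977 genes tested. Their median log2 ratio was 1.07, and Rac2, a small GTPase of blood cells, was called, at 41.0 and 206 CPM. Of the 4 transcription factors of granulopoiesis, 3 reached the minimum count and 0 were called. Spi1, which encodes PU.1, was measured at 61.6 and 151 CPM and Cebpa at 74.1 and 133 CPM. Cebpe, which drives the formation of specific granules, was at 3 counts and 1 count, and Gfi1 was within counting error at 20 and 19 counts.

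Ligands of the receptors Cxcr2 and Csf3r were higher in the IC library, 6 of 7 called and 0 called in the other direction, with a median log2 ratio of -4.16. Csf3, the granulocyte colony-stimulating factor itself, had 403 and 0 counts, 103-fold higher when set against the floor, and its interval began at 83.7-fold. The ligand thus differed in the direction opposite to its receptor Csf3r. Among the chemokines, Cxcl5 had 919 and 5 counts, a 142-fold ratio (60.4 to 437). Cxcl1 had 1825 and 195, Cxcl2 1837 and 114, and Cxcl3 1344 and 40, while Ppbp had 250 and 24. Cxcl15, a lung chemokine, had 0 in both.

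Cytokines known to induce these ligands differed in both directions. Of 8, 7 reached the minimum and 4 were called higher in the IC library, namely Il17a (70 and 0 counts), Il1a (497 and 17), Il36a (525 and 0) and Il36g (676 and 1). Il17f, at 17 and 4 counts, was 3.27-fold higher in the IC library (1.07 to 13.4) and was not called. Il1a, Il36a and Il36g are interleukin 1 family members made by keratinocytes, and Il17a is the cytokine of type 17 lymphocytes. Il1b and Tnf, typical of macrophages, were slightly higher in the EC library, at 70.5 and 95.6 CPM for Il1b and 6.62 and 9.72 CPM for Tnf. Receptors and partners of calprotectin (Tlr4, Ly96, Cd14, Ager and Myd88) had 0 of 5 called and a median log2 ratio of 0.34. Beyond counting error, 4 of these 5 were higher in the EC library and 0 in the other. Tlr4, the receptor for calprotectin, was at 13.1 and 23.5 CPM.

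Because epithelium can supply 5 of the genes, epithelial genes of the same kind were set beside them. Of 8 other antimicrobial and alarmin genes of stratified epithelium, 6 were called higher in the IC library and 0 in the other, with a median log2 ratio of -5.59. Defb4, a beta-defensin, had 3130 and 0 counts, 804-fold higher when set against the floor, and its interval began at 653-fold. S100a14 had 8106 and 7 counts, an 892-fold ratio (433 to 2219) whose interval overlapped those of S100a8 and S100a9. Of 10 other antimicrobial genes of glands and airway, 8 were called higher in the IC library and 0 in the other (median -6.69). Slpi, a protease inhibitor, was measured at 320.5 and 0.523 CPM and Bpifb1, a secreted airway protein, at 127 and 0 CPM. Lyz1 was the exception at 215 and 352 CPM, and may share reads with the macrophage lysozyme Lyz2.

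Markers of stratified epithelium had a median log2 ratio of -11.56, with Krt5, Trp63, Dsg3 and Ivl at 0 counts in the EC library. Markers of simple and glandular epithelium summed to 2603 and 21.8 CPM, with 8 of 10 called higher in the IC library and a median of -5.67, and Krt19 and Muc5b were at 0 in the other. Aqp5, the water channel of gland cells, went against this pattern at 18.8 and 19.8 CPM, and made up most of the EC sum. An epithelial and a neutrophil source of the 5 shared genes cannot be told apart from these counts. In the IC library, the level of S100a8 per kilobase of exon was 25.0 times that of Retnlg (22.3 to 28.2), and that of Ltf was 0.622 times (0.548 to 0.709). The part of epithelium in the levels of the 5 shared genes was not tested.

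Within the S100 family the difference was uneven. Of 14 other S100 genes, 13 reached the minimum, and S100a7a and S100a14 were called higher in the IC library, with 0 called in the other direction. Both, like S100a16, also belong to the list of stratified epithelium alarmins above, so these calls are counted there too. S100a7a, an epidermal alarmin related to psoriasin, had 1282 and 34 counts, a 29.0-fold ratio (20.7 to 42.1). The median log2 ratio of these genes was -0.94. S100a6, at 1619 and 1327 CPM, and S100a10, at 459.1 and 355.7 CPM, differed far less than S100a8 and S100a9. S100a1 was higher in the EC library, at 39.0 and 65.9 CPM.

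**Figure D4:**
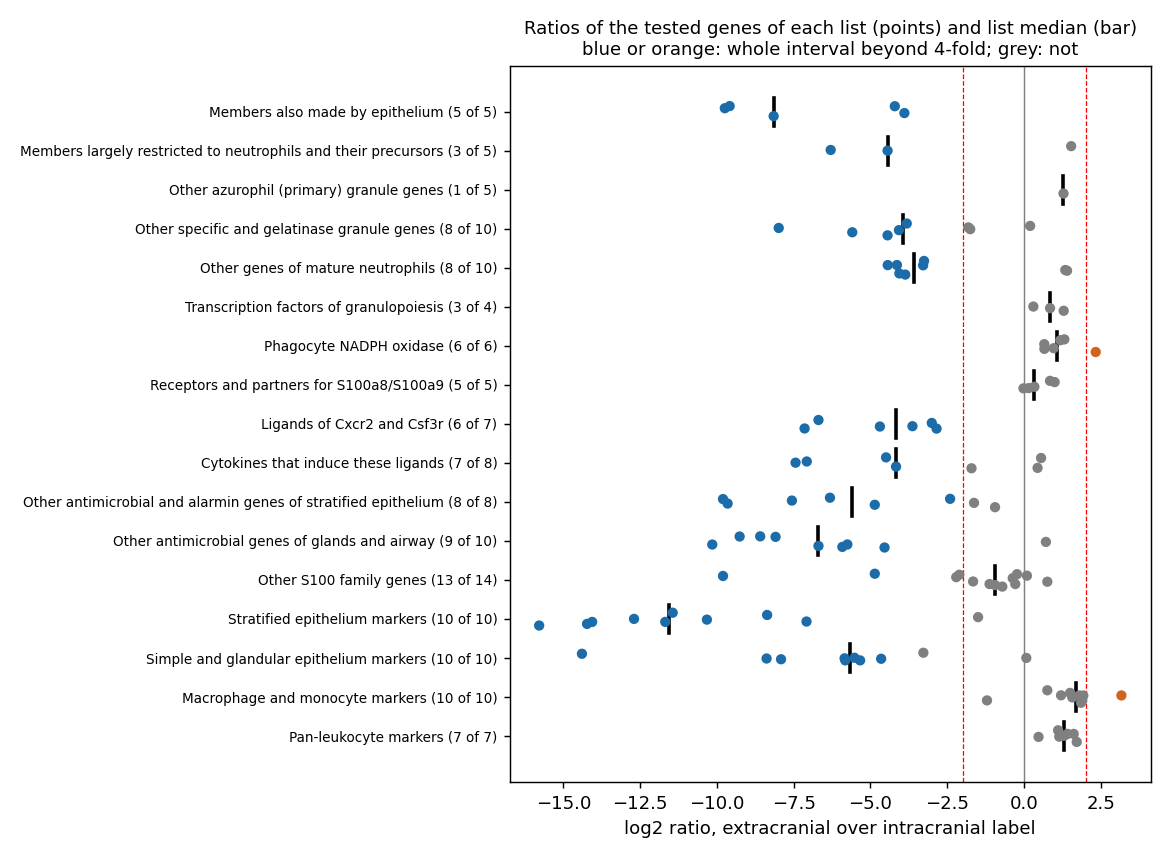
The log2 ratio, extracranial over intracranial label, of each gene with 10 or more counts (points) and the median (bar) of each gene list, with the number of genes shown and listed in brackets. Blue and orange points have a whole 95% interval beyond 4-fold, marked by red lines. Ligand genes and most epithelial and granule genes lie on the left, with Aqp5 at 0.07 and Lyz1 at 0.71 among the exceptions, and the NADPH oxidase, macrophage and pan-leukocyte genes lie mostly between 0 and 2.5.

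Of 9 sequence relatives of the genes, only 2 reached the minimum count, and these differed in opposite directions. Trf, transferrin, a relative of Ltf, was higher in the EC library, at 169 and 507 CPM. Retnla, a resistin-like gene of alternatively activated macrophages, had 146 and 18 counts. It was 6.25-fold higher in the IC library (3.82 to 10.8), the direction of Retnlg, and was not called. The peroxidases Lpo and Epx had at most 1 count in either library, as did Retnlb, which had 0 in both.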

How the data were processed

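Bulk RNA-seq counts of 2 tumors were analysed, 1 labelled intracranial (IC) and 1 labelled extracranial (EC). Per the labels and the study's methods, the deposited counts are raw reads per Ensembl gene, 1 column per tumor. The authors made them from directional poly(A) libraries, read from 1 end, with STAR 2.7.9a on GRCm39 and featureCounts. FastQC 0.11.9 and MultiQC 1.11 are also named in the submitters' processing notes. The strand setting and the handling of reads with several alignments are not given in the sources used here.

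Symbols and summed exon lengths came from mouse GENCODE release 21, an older annotation on GRCm38, which gave a symbol to 52083 of 55416 IDs (94.0%). Il36a and Il36g were matched by their older symbols. Promoter sequences came from RefSeq (GRCm38.p6), matched by symbol for 10 of 10 genes, and no coordinate was joined to the counts. Exons of Mpo overlap those of the antisense gene Gm11505, and no other annotated exon overlaps the other genes.

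Library sizes (34545846 and 26915696 counts) were multiplied by TMM factors of 1.006 and 0.994, calculated with edgeR 4.0.16 (R 4.3.3). CPM are counts over scaled library sizes. Levels and ratios were given exact Clopper-Pearson 95% intervals with scipy 1.17.1, conditional on the summed counts for ratios. Counts of 3 or fewer were treated as the floor, and genes with 10 or more counts were called if their entire interval exceeded 4-fold. With no replicates, no model of the spread could be fitted and no p-value is given. The procedure was tested on simulated data that held counting error only, so this test does not cover the spread between tumors. Alternatives were DESeq2 1.42.0 size factors, total counts, upper quartile scaling, other count minimums, a prior count of 2, other fold limits and protein-coding genes only.

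The 10 genes and the 21 gene lists were chosen with earlier results of these data known. All 10 genes are named, and other named genes belong to these lists, apart from the targeted gene Smarcb1, the Cre locus Dppa3, the copies Chil4 and Lyz2, and Gm11505.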

Additional observations from a re-analysis of the deposited data

How the results depend on the processing

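No paired analysis was possible because there was a single tumor at each site, and for that reason no library could be left out. The other scalings shifted the median log2 ratio of all genes tested by -0.02 to 0.04. Under the scalings and the prior count of 2, each of the 8 genes with a ratio stayed within its counting interval, 7 were called higher in the IC library and 0 in the other. That count was 6 with 100 or more counts, which leaves out Camp, and 6 with an interval beyond 8-fold. With an interval beyond 2-fold, 1 gene, Csf3r, was called higher in the EC library. Without a minimum count Ngp entered, and the median log2 ratio moved from -5.37 to -4.44 for all genes of the set and from -4.44 to -2.83 for the neutrophil-restricted ones. Leaving out Csf3r, an alternative chosen after seeing the data, gave -6.30 and -5.37. Of all genes, 1581 were called. An interval beyond 2-fold gave 3434 (2147 higher in the IC library and 1287 in the other), one beyond 8-fold 891 (747 and 144), and the ratio beyond 4-fold without an interval 2542, of which 787 were higher in the EC library, by construction of these limits. Depth limits Ngp, Mpo, Camp and every gene at 0 to 4 counts in the EC library.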

Other observations

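Lists of other blood cells held few counts. Of 10 eosinophil and mast cell markers, 5 were above the floor in the IC library and 2 in the EC library, summing to 3.63 and 1.98 CPM. Tpsb2, a mast cell tryptase, was called higher in the IC library (21 and 0 counts), and Epx, eosinophil peroxidase, had 0 in both. Markers of erythroid precursors of the marrow summed to 0.691 and 0.374 CPM, with Slc4a1 and Gata1 at 0 in both libraries. Among 4 platelet and megakaryocyte markers, 3 reached the minimum count and 0 were called. Pf4, which macrophages can also make, was measured at 94.1 and 85.0 CPM and Itga2b, the platelet integrin, at 43.9 and 21.2 CPM, while Gp9 had 8 and 0 counts.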
